A study of Mus musculus with 7 samples.

Results

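Heme breakdown is carried by the heme oxygenases Hmox1 and Hmox2, which open the heme ring and release iron, carbon monoxide and biliverdin, and by the biliverdin reductases Blvra and Blvrb. Together with the heme transporters Slc48a1 and Flvcr1 and the regulators Bach1, Nfe2l2 and Keap1, these made up the 9 genes described here, of 55855 identifiers in the table. They were found by matching Ensembl identifiers to symbols of GENCODE mouse release M21. All 9 were found, and all 9 passed the filter on low values (an average of 1 FPKM or more across libraries). FPKM are read counts scaled to gene length and to the counted reads of the library. The genes were chosen by their place in the pathway with earlier results of this comparison known, selected on the high Hmox1 FPKM of the Fth1-deleted libraries among them, so their values in the genotypes are a description and support nothing further.

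RNA came from bone marrow hematopoietic stem cells (HSCs) of mice aged 2 months. The control group, which the series text calls WT, held 3 libraries of the genotype Fth1fl/fl, in which the gene of ferritin heavy chain is flanked by recombination sites. The Fth1-deleted group held 4 libraries labelled Fth1△/△, the deleted genotype. The series text describes a conditional deletion in the hematopoietic system. The Cre line, the exons removed, any inducing agent and the markers of the sort are not given in the sources used here, nor whether libraries of a group came from different mice. All p values therefore measure the spread between libraries, which may be technical.

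BACH1 is a repressor that binds heme. When heme is scarce it sits with small MAF proteins on MAF recognition elements of genes such as Hmox1, and when heme binds it, it leaves the DNA and is degraded. NRF2, the product of Nfe2l2, activates through the same family of sites, and the adaptor KEAP1 directs it to degradation until oxidants or electrophiles modify KEAP1. Both proteins are therefore controlled largely after their RNA is made. In bone marrow, Hmox1 is best known from macrophages that clear red cells, and BLVRB from red cells and their precursors.

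To show which promoters of these genes hold the letters that NRF2 dimers recognise, windows from 250 bases before to 50 bases after the annotated start were read from RefSeq (GRCm38.p6). They were matched for 7 of 9 genes, all but Hmox1 and Slc48a1, in 10 windows. The antioxidant response element core TGACNNNGC was searched on both strands, and 3 of 10 windows held it, those of Nfe2l2, Flvcr1 and Blvra. Of all 32851 promoter windows of the same length, 12.4% held it. The core TGAGTCA, which on the other strand can share letters with the first motif, was in 0 of 10 windows and in 5.2% of all windows. The matches are printed with 10 bases on each side and the core in capitals, Nfe2l2 and Flvcr1 on the strand of the gene, and Blvra and the NRF2 target Gclm, shown for comparison, on the opposite strand.
Nfe2l2: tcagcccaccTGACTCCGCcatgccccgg
Flvcr1: ttcacaagctTGACCCCGCccctcttctc
Blvra: ggcggagcctTGACCGAGCaattcccgtg
Gclm: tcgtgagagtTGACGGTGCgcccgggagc
The core begins 240 bases before the start in Nfe2l2 (chr2:75704885-75704913), 151 bases before it in Flvcr1 (chr1:191026323-191026351) and 49 bases before it in Blvra (chr2:127070598-127070626), counting to its first base on the gene's strand. In Gclm (chr3:122245413-122245441) it lies 134 bases before the start. The whole window of Nfe2l2 (chr2:75704614-75704913, minus strand, read 5′ to 3′ on the strand of the gene) is printed because the level of this gene separated the genotypes.
Nfe2l2 promoter: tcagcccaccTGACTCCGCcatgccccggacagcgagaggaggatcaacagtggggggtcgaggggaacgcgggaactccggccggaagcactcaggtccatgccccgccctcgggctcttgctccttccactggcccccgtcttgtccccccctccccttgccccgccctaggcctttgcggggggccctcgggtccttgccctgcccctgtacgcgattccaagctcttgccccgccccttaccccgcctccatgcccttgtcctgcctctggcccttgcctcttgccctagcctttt
Its capitals mark the same core. These matches are letters in a window, and binding was not measured.

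Some libraries stood apart before any gene of the set was compared. Counted reads, recovered from the FPKM values, ranged from 12058394 to 15453165 per library. Ribosomal RNA took 1.22% to 1.34% of reads in the Fth1-deleted libraries, 0.984% in control 2 and 0.014% and 0.0253% in the other control libraries (exact permutation test, two-sided, p = 0.0286, the smallest that 35 splits allow). Reads of Y-linked genes were present in control 2 and Fth1-deleted 1, 2 and 3, and at 0 in control 1, control 3 and Fth1-deleted 4. The targeted gene Fth1 lay at 552 to 659 FPKM in the controls and at 114 to 358 FPKM in Fth1-deleted libraries, with no overlap, and did not pass the threshold (adjusted p = 0.193 in limma). The Fth1-deleted mean was 40.8% of the control mean, and since the removed exons are not given, this level cannot show how complete the deletion was. Of 11 HSC markers all had a mean FPKM of at least 1, and their summed FPKM was 920.3 to 1515 in the controls and 626 to 847 in Fth1-deleted libraries. The part of these library differences in the results was not tested, beyond the alternatives given with them.

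The genotypes differed in Hmox1, the inducible heme oxygenase (ENSMUSG00000005413, GRCm38 chromosome 8, 75093621 to 75100589, plus strand). Its FPKM was 17.2, 23.0 and 26.3 in control 1, 2 and 3, and 138, 93.5, 109.8 and 65.2 in Fth1-deleted 1, 2, 3 and 4. The lowest Fth1-deleted library thus lay above the highest control library, and the spread within the Fth1-deleted group was wider than within control. The means were 22.1 ± 4.58 (SD, n = 3) and 102 ± 30.3 FPKM (SD, n = 4), a 4.59-fold difference. Behind these values stood 280 to 2493 reads per library.

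On the log2(FPKM + 1) scale the Hmox1 difference, Fth1-deleted minus control, was 2.12 (SE 0.28, adjusted p = 0.0213 in limma after Benjamini-Hochberg adjustment over 13948 genes), and 99.1% of tested genes had a lower difference. In that fit 4 genes were called higher, 0.0287% of those tested, and 4 lower, also 0.0287%. Of the 9 genes, 1 was called higher, Hmox1, and 0 lower. Because Hmox1 was known to be called when the set was chosen, nothing is read from that count. The call ended without control 3 (adjusted p = 0.0548), Fth1-deleted 1 (0.0615), Fth1-deleted 2 (0.0596) or Fth1-deleted 3 (0.0806), and with the share of ribosomal RNA as a covariate (0.157). With the genes of all 7 libraries kept it ended in each of the 7 fits with 1 library left out (0.116 to 0.281). It held in 8 of the 25 alternatives, and over all 25 the adjusted p ranged from 0.0168 to 0.684. The difference itself stayed between 1.93 and 2.31 in all 25 alternatives, and was 2.05 when only the 5 libraries rich in ribosomal RNA were used, which hold control 2 alone of the controls.

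**Figure D1:**
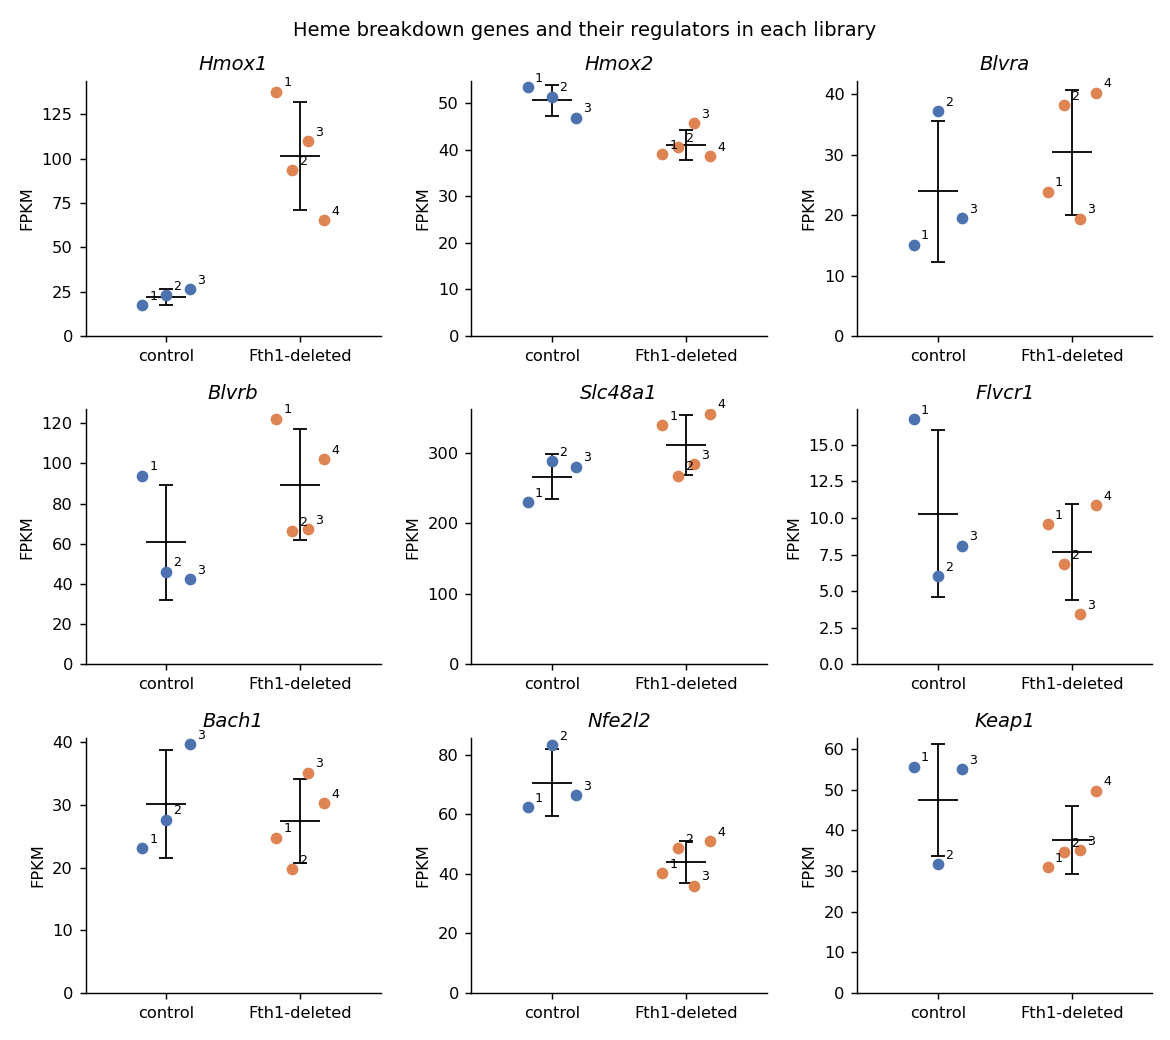
FPKM of the 9 genes in each library (y axis, linear from 0), with control libraries in blue and Fth1-deleted libraries in orange, numbered by replicate; the horizontal bar is the mean and the whiskers are 1 SD. Hmox1 reached 65.2 to 138 FPKM in Fth1-deleted libraries against 17.2 to 26.3 in control, and for Nfe2l2 and Hmox2 all 4 Fth1-deleted libraries lie below all 3 controls.

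Among the Fth1-deleted libraries, Hmox1 and Fth1 FPKM were neither in the same nor in the opposite order. Since the Fth1 level cannot show how complete the deletion was, nothing is read from this. Fth1-deleted 4 had the least Fth1, at 114 FPKM, and also the least Hmox1 of its group, at 65.2. Fth1-deleted 1 had 202 FPKM of Fth1 and the most Hmox1, 138. Fth1-deleted 2 and 3 had 333 and 358 FPKM of Fth1 and 93.5 and 109.8 of Hmox1.

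Hmox2, the constitutive heme oxygenase (ENSMUSG00000004070, chromosome 16, 4726361 to 4766742), was at 53.4, 51.3 and 46.8 FPKM in the controls and at 39.0, 40.5, 45.6 and 38.6 FPKM in Fth1-deleted libraries. The groups did not overlap, although the lowest control library and the highest Fth1-deleted library were close, and the level varied little within each group. The means were 50.5 ± 3.36 and 40.9 ± 3.24 FPKM, and the log2 difference was -0.30 (SE 0.22, adjusted p = 0.684 in limma), which did not pass. Of its exon bases, 892 are shared with Cdip1 on the opposite strand, so its level is uncertain without a known strand setting. An Hmox2 transcript is also 99.6% identical to Ppp4r2 over 44% of its length.

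The share of the summed oxygenase FPKM held by each gene therefore turned over between the groups. Hmox1 made up 24.4%, 30.9% and 35.9% of the summed FPKM of both genes in the controls and 77.9%, 69.8%, 70.7% and 62.8% in Fth1-deleted libraries. Hmox2 had the higher FPKM of the pair in all 3 control libraries, and Hmox1 in all 4 Fth1-deleted libraries. These shares rest on the uncertain level of Hmox2. The ratio of Hmox1 to Hmox2 was lowest of its group in Fth1-deleted 4, at 1.69. The summed FPKM was 70.6, 74.3 and 73.1 in the controls and 177, 134, 155 and 104 in Fth1-deleted libraries. Control libraries thus differed little in the sum (72.7 ± 1.85, n = 3) while Fth1-deleted libraries spread widely (142 ± 31.1, n = 4).

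**Figure D2:**
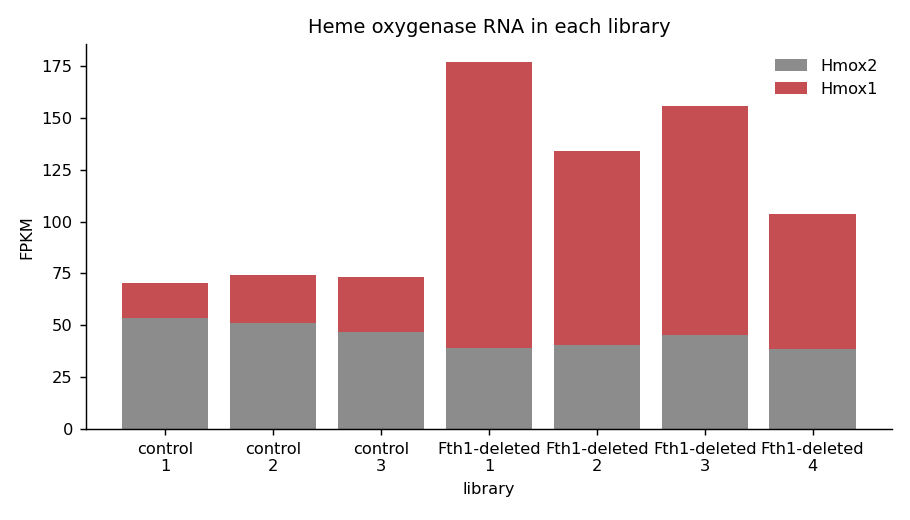
Stacked FPKM of Hmox2 (grey) and Hmox1 (red) in each library, on a linear axis from 0. The sum was 70.6 to 74.3 FPKM in the control libraries and 104 to 177 in Fth1-deleted libraries, and most of the higher sum is the red part. The Hmox2 level is uncertain because of exon bases shared with Cdip1.

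The summed level of macrophage markers was higher in the Fth1-deleted libraries, as Hmox1 was, but most single markers did not separate the groups. Of 15 macrophage markers, 14 had a value above 0 in some library, and Marco was at 0 in all. Their summed FPKM was 66.7, 51.1 and 26.6 in control 1, 2 and 3, and 185, 78.1, 107.5 and 82.7 in Fth1-deleted 1, 2, 3 and 4. These sums did not overlap, and Fth1-deleted 1 was highest in both the sum and Hmox1. Without C1qb they did, at up to 66.7 FPKM in the controls and from 59.1 in Fth1-deleted libraries. The groups did not overlap for 2 of 15 markers, C1qb and Cd68, both higher in Fth1-deleted libraries. Of all tested genes, 4.1% were higher without overlap. The Fth1-deleted mean was above the control mean for 12 of 15 markers and below it for Spic (2.64 and 3.30 FPKM) and Cd5l (2.07 and 2.14 FPKM). Within control the sums ran opposite to Hmox1, since control 1 had the highest marker sum and the lowest Hmox1. Within the Fth1-deleted group the lowest sum was in Fth1-deleted 2 and the lowest Hmox1 in Fth1-deleted 4. Adgre1, the gene of the F4/80 antigen, was at 0 in the 3 control libraries and Fth1-deleted 4, and at 4.88, 2.38 and 3.55 FPKM in Fth1-deleted 1, 2 and 3. More cells of a type and more RNA per cell cannot be told apart in these bulk libraries. The part of macrophage RNA in the Hmox1 difference was not tested. The 6 monocyte markers summed to 4.23 to 22.3 FPKM in the controls and 3.44 to 43.5 in Fth1-deleted libraries, with overlap. Neutrophil markers (8 genes, 2.33 to 44.8 and 53.7 to 249 FPKM) and mast cell markers (5 genes, 0 to 12.9 and 16.0 to 44.4 FPKM) had sums that were higher in each Fth1-deleted library, with Ly6g and Mcpt8 at 0 throughout. The neutrophil and granule gene sums overlapped without Mpo, and the mast cell and basophil sums without Cpa3. Each was the only marker of its list whose groups were apart, where 4.1% of all tested genes were higher without overlap. The part of RNA from these cells was not tested either. The 6 B cell markers summed to 12.1 to 26.2 and 24.2 to 83.1 FPKM and the 5 T cell markers to 0 to 2.91 and 0 to 8.80 FPKM, both with overlap. Among B cell markers only Vpreb1 had groups apart, at 0 in the controls and 4.06 to 31.8 FPKM in Fth1-deleted libraries. Without Cd79b the B cell sums were apart too, at up to 4.95 FPKM in the controls and from 9.71 in Fth1-deleted libraries.

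**Figure D3:**
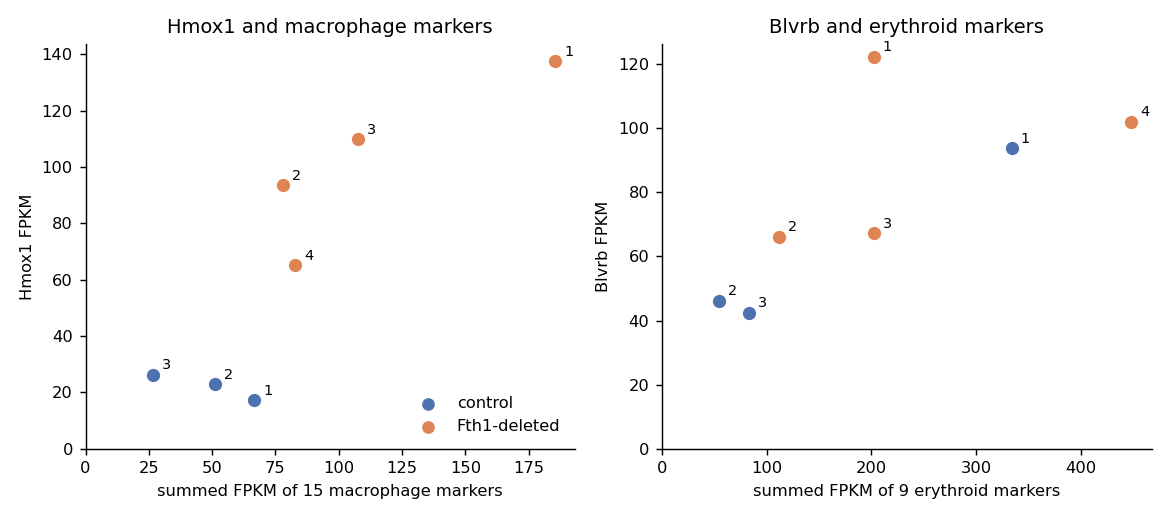
Left, Hmox1 FPKM (y axis) against the summed FPKM of 15 macrophage markers; right, Blvrb FPKM against the summed FPKM of 9 erythroid markers; each point is 1 library, blue for control and orange for Fth1-deleted, numbered by replicate. Fth1-deleted 1 has the highest macrophage sum (185) and the highest Hmox1 (138), and control 1 has high erythroid markers (334) and Blvrb (93.9) among controls.

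The biliverdin reductases take the product of the oxygenases on to bilirubin. Blvra (ENSMUSG00000001999, chromosome 2, 127070665 to 127097084), which makes the bilirubin of adult tissue, was at 15.1, 37.2 and 19.5 FPKM in the controls and at 23.9, 38.2, 19.4 and 40.3 FPKM in Fth1-deleted libraries. The groups overlapped, and control 2 was close to the highest Fth1-deleted library. The log2 difference was 0.37 (SE 0.38, adjusted p = 0.767 in limma), and with the ribosomal RNA covariate it was -0.70. It was 0.11 without control 1 and 0.73 without control 2.

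Blvrb (ENSMUSG00000040466, chromosome 7, 27447978 to 27466144), a flavin reductase abundant in red cells, was at 93.9, 46.2 and 42.5 FPKM in the controls and at 122, 66.2, 67.2 and 102 FPKM in Fth1-deleted libraries. Control 1 lay among the Fth1-deleted libraries, and the other controls lay below all of them. The means were 60.8 ± 28.7 and 89.4 ± 27.5 FPKM (log2 difference 0.59, SE 0.32, adjusted p = 0.584 in limma). Without control 1 the log2 difference was 0.95. Erythroid markers were high in part of the same libraries. Their sum over 9 genes was 334, 54.3 and 83.0 FPKM in the controls 1, 2 and 3 and 202, 112, 202 and 448 in Fth1-deleted 1, 2, 3 and 4. Klf1, an erythroid transcription factor, was at 63.0, 33.5 and 24.0 FPKM in the controls and 74.3, 34.4, 29.2 and 49.7 in Fth1-deleted libraries. The part of erythroid RNA in the Blvrb values was not tested. The ratio of Blvrb to Blvra ranged from 1.24 to 6.22 between control libraries and from 1.74 to 5.12 between Fth1-deleted libraries, and these ranges overlapped.

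Of the heme transporters, Slc48a1, which carries heme out of endosomes and lysosomes, was the most abundant gene of the set in both groups (ENSMUSG00000081534, chromosome 15, 97778520 to 97792692). Its FPKM was 229.8, 288 and 279.8 in the controls and 339, 267, 283 and 355 in Fth1-deleted libraries. Fth1-deleted 1 and 4 lay above all controls, while Fth1-deleted 2 and 3 lay within the control range. The log2 difference was 0.22 (SE 0.17, adjusted p = 0.703 in limma), 0.12 without control 1 and 0.0519 with the ribosomal RNA covariate. Flvcr1, a heme exporter of the plasma membrane needed for red cell formation (ENSMUSG00000066595, chromosome 1, 191005847 to 191026158), was the least abundant, at 16.7, 6.03 and 8.12 FPKM in the controls and 9.59, 6.83, 3.43 and 10.9 FPKM in Fth1-deleted libraries. Control 1 stood above and Fth1-deleted 3 below the other libraries, and the groups overlapped. The log2 difference was -0.36 (SE 0.52, adjusted p = 0.841 in limma), and 0.02 without control 1. Flvcr1 shares 809 exon bases with the antisense gene A230020J21Rik, listed at 0, and Slc48a1 shares 29 with Hdac7 on the opposite strand.

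Among the regulators, Nfe2l2 (ENSMUSG00000015839, chromosome 2, 75675513 to 75704641, minus strand) was at 62.3, 83.3 and 66.4 FPKM in the controls and at 40.1, 48.5, 36.0 and 50.9 FPKM in Fth1-deleted libraries. Each Fth1-deleted library lay below each control library, with the highest at 50.9 and the lowest control at 62.3. The means were 70.7 ± 11.1 and 43.9 ± 6.997 FPKM, so that 62.1% of the control mean remained. The log2 difference was -0.68 (SE 0.23), with an unadjusted p of 0.0125 and an adjusted p of 0.385 by limma, so it did not pass, and 14.7% of tested genes had a lower difference. It was negative in all 25 alternatives. The RNA of the activator was thus low in the libraries in which Hmox1 was high, and protein was not measured.

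Bach1, the heme-binding repressor (ENSMUSG00000025612, chromosome 16, 87698945 to 87733346), was at 23.1, 27.7 and 39.7 FPKM in the controls and at 24.7, 19.8, 35.2 and 30.3 FPKM in Fth1-deleted libraries. The groups overlapped over most of their range. The log2 difference was -0.13 (SE 0.31, adjusted p = 0.916 in limma), and it turned to 0.08 without control 3 and to 0.02 without Fth1-deleted 2. Keap1 (ENSMUSG00000003308, chromosome 9, 21229730 to 21239361) was at 55.6, 31.7 and 55.1 FPKM in the controls and at 31.0, 34.6, 35.1 and 49.8 FPKM in Fth1-deleted libraries. Control 2 lay with the lower Fth1-deleted libraries, and the log2 difference of -0.31 (SE 0.28, adjusted p = 0.744 in limma) became 0.40 with the ribosomal RNA covariate, -0.03 with the Y-linked term, -0.57 without control 2, -0.17 without control 1 and -0.18 without control 3. An antisense gene, Gm16754, shares 510 exon bases with Keap1.

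Across the 9 genes, 4 log2 differences were positive and 5 negative. The median was -0.13 (-0.18 to 0.10 over the 25 alternatives) and the mean 0.17, which differ in sign, beside a median of -0.02 over all tested genes. Groups did not overlap for 1 of 9 genes in the higher direction (Hmox1), where 4.1% of tested genes were of this kind, and for 2 of 9 in the lower direction (Hmox2 and Nfe2l2), where 5.55% were. At an unadjusted p under 0.05 there were 2 of 9, Hmox1 higher and Nfe2l2 lower, where 9.83% of tested genes passed in either direction. These counts come from the contrast with which the set was chosen, and nothing is read from them.

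**Figure D4:**
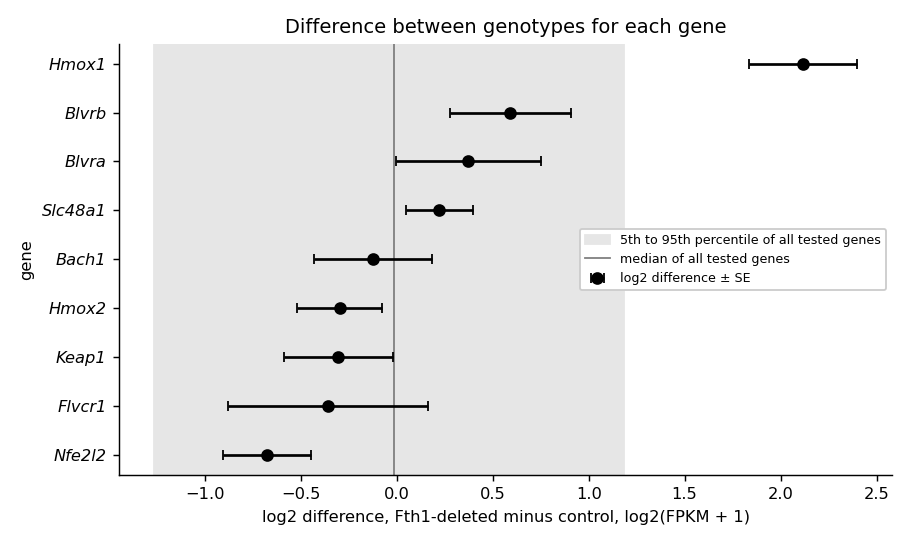
Log2 difference between genotypes on the log2(FPKM + 1) scale (x axis) for each of the 9 genes, with whiskers of 1 SE; the grey band spans the 5th to 95th percentile of all 13948 tested genes (-1.26 to 1.19) and the grey line their median. Hmox1, at 2.12, lies outside the band and the other genes lie within it.

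FPKM are scaled by length, here the mean over annotated transcripts, so levels of different genes compare only roughly. Hmox2, Keap1 and Flvcr1 also share exon bases with other genes. In control the order of mean levels was Slc48a1, Nfe2l2, Blvrb, Hmox2, Keap1, Bach1, Blvra, Hmox1 and Flvcr1. Only the first step and the last, from Hmox1 (17.2 to 26.3 FPKM) to Flvcr1 (6.03 to 16.7 FPKM), had neighbours whose ranges did not overlap. In Fth1-deleted libraries Hmox1 stood second behind Slc48a1, followed by Blvrb, Nfe2l2, Hmox2, Keap1, Blvra, Bach1 and Flvcr1. There Hmox1 and Blvrb overlapped, with Hmox1 higher in 3 of 4 libraries, and the ranges were apart between Slc48a1 and Hmox1, between Blvrb and Nfe2l2 and between Bach1 and Flvcr1.

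Known targets of NRF2 and BACH1 were given as a list of 26 genes, chosen for their place in the pathway. The 9 genes of the set and the targeted gene Fth1 were left out of it. The choice was made with earlier results of these data known, so the counts are a description and support nothing further. Of the 26 genes, 25 were tested, since Slc7a11 had a mean FPKM under 1. By limma 0 rose and 0 fell past the threshold, and 25 did not pass. At an unadjusted p under 0.05, 6 were higher and 0 lower, where 4.9% and 4.93% of all tested genes were, and limma-voom on the recovered reads called 0 in either direction. The median log2 difference was 0.30 (0.23 to 0.68 over the 25 alternatives), with 21 positive and 4 negative, beside -0.02 over all tested genes, of which 48.7% were positive. The median was 0.68 with the ribosomal RNA covariate, which called 1 gene higher, Idh1 (named after its values were seen), and 0.61 in the 5 libraries rich in ribosomal RNA.

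The target genes with the smallest p were Ftl1 and Gclm. Ftl1, the ferritin light chain, was at 150.3, 186 and 194 FPKM in the controls and at 373, 222, 344 and 386 FPKM in Fth1-deleted libraries (log2 difference 0.88, SE 0.21, adjusted p = 0.219 in limma). Fth1-deleted 2 stood closest to control. One Ftl1 transcript is 97.3% identical to Ftl1-ps1 over 98.6% of its length, so this level is uncertain. Gclm, the modifier subunit of glutathione synthesis whose promoter match is printed above, was at 64.8, 82.9 and 83.4 FPKM in the controls and at 162, 99.4, 172 and 157 FPKM in Fth1-deleted libraries (log2 difference 0.91, SE 0.23, adjusted p = 0.231 in limma). Again Fth1-deleted 2 was nearest to control, as it was not for Hmox1. In all, 4 targets had groups that did not overlap, all higher in Fth1-deleted libraries (4.1% of tested genes were of this kind), and besides Ftl1 and Gclm these were Txn1 and Pgd, named after their values were seen.

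**Figure D5:**
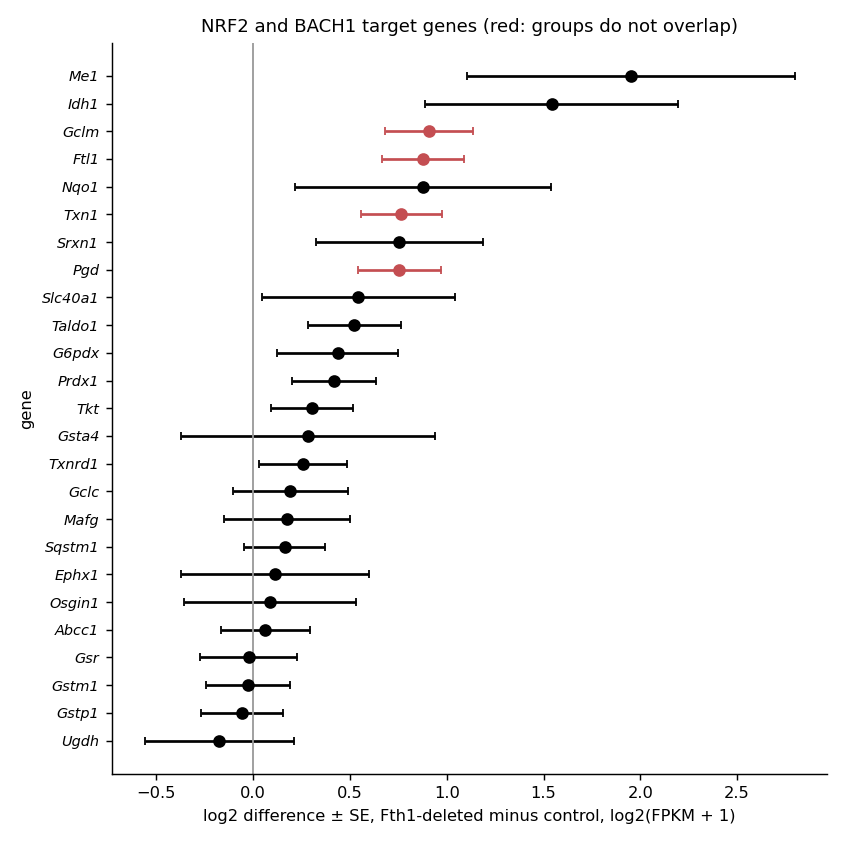
Log2 difference on the log2(FPKM + 1) scale with whiskers of 1 SE for the 25 tested targets of NRF2 and BACH1. The 9 genes of the set and Fth1 are left out. Red marks the 4 genes whose groups do not overlap. The median is 0.30, and 21 of 25 genes lie to the right of 0.

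Antioxidant cores were also counted in the promoters of these targets. The core TGACNNNGC was in 9 of 27 windows of the 21 targets with an entry, or 33.3%, beside 12.4% of all windows, and TGAGTCA was in 5 of 27, or 18.5%, beside 5.2%. Gclm was among the former, and Ftl1 was in neither group.

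The partners and turnover machinery of NRF2 and BACH1 showed no call. Mafg and Sqstm1, in this list, were also in the list of targets. Of 17 genes 16 were tested, and 0 rose and 0 fell (limma; also 0 at an unadjusted p under 0.05 and 0 by limma-voom). The median log2 difference was -0.09 (-0.26 to 0.00381 over the 25 alternatives). Btrc, a ubiquitin ligase adaptor that can direct NRF2 to degradation, had the smallest p, at 28.2, 21.5 and 17.7 FPKM in the controls and 15.3, 12.7, 14.3 and 13.9 in Fth1-deleted libraries (adjusted p = 0.576). Its groups did not overlap, the only such gene of the 16, where 5.55% of all tested genes were lower without overlap. Rbx1, a subunit of the same family of ligases and of the KEAP1 complex, was at 71.6 ± 8.96 and 95.1 ± 25.6 FPKM (adjusted p = 0.652).

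Other factors known to activate Hmox1, such as AP-1, were described by 18 genes, of which 17 were tested. By limma 0 rose and 0 fell, with 0 higher and 1 lower at an unadjusted p under 0.05 and 0 by limma-voom, and the median log2 difference was 0.02, beside a mean of -0.07 (medians of -0.43 to 0.19 over the 25 alternatives). The smallest p belonged to the immediate early gene Egr1, at 33.5, 102 and 36.3 FPKM in the controls and 21.3, 16.3, 21.3 and 11.0 in Fth1-deleted libraries (log2 difference -1.51, SE 0.41, adjusted p = 0.279 in limma). Control 2 stood far above the other controls, and without it the log2 difference was -0.998 (adjusted p = 0.507). Egr1 was called with a term for Y-linked reads (-1.97, adjusted p = 0.0491) and not with the ribosomal RNA covariate (-2.92, 0.0885). Junb, an AP-1 subunit, was at 169 ± 6.77 and 124 ± 32.9 FPKM (adjusted p = 0.512). For these 2 of 17 genes the groups did not overlap, with Fth1-deleted libraries lower, where 5.55% of all tested genes were of this kind. For Junb the gap was narrow, 160.4 against 161.1 FPKM.

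Genes that act beside the oxygenases and transporters were not called either. Abcc1 and Gstp1, among the oxygenase partners and export genes, were also in the list of NRF2 and BACH1 targets. Of 8 genes of oxygenase partners and bile pigment export 5 were tested, with 0 rising and 0 falling, 0 at an unadjusted p under 0.05, 0 by limma-voom and a median of -0.06 (-0.29 to 0.39). Por, the reductase that gives electrons to heme oxygenase, was at 273 ± 36.6 and 227 ± 15.1 FPKM (log2 difference -0.26, SE 0.16, adjusted p = 0.640 in limma), and Cav1, a caveolin that can bind HMOX1, was above 0 only in control 3, at 10.04 FPKM. Of 15 genes of heme transport, scavenging and sensing 13 were tested, with 0 rising and 0 falling, 1 lower at an unadjusted p under 0.05, 0 by limma-voom and a median of -0.05 (-0.06 to 0.13), beside a mean of 0.04. That gene was Abcg2, an efflux pump that can export porphyrins and heme, at 74.1, 66.7 and 65.6 FPKM in the controls and 38.9, 48.9, 50.7 and 40.1 FPKM in Fth1-deleted libraries (log2 difference -0.62, SE 0.22, adjusted p = 0.400 in limma). Its groups did not overlap, the only such gene of the 13, where 5.55% of all tested genes were lower without overlap. Pgrmc2, a carrier of heme to the nucleus, was at 29.2 ± 18.2 and 44.0 ± 8.80 FPKM (adjusted p = 0.5997).

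Of 12 genes of heme synthesis, all tested, 0 rose and 0 fell by limma, 3 were higher and 0 lower at an unadjusted p under 0.05 (4.9% and 4.93% of all tested genes), 0 were called by limma-voom and the median log2 difference was 0.20 (-0.13 to 0.56). Cpox, which makes protoporphyrinogen, was at 33.8 ± 13.03 and 67.7 ± 17.4 FPKM (log2 difference 1.02, SE 0.30, adjusted p = 0.306 in limma), and Alad, which joins aminolevulinic acid, was at 31.4 ± 21.6 and 53.4 ± 7.41 FPKM (adjusted p = 0.444).

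Finally, genes with a pattern over the 7 libraries close to that of Hmox1 were sought among 9484 named genes averaging 5 FPKM or more. Likeness was the root mean square difference between log2(FPKM + 1) relative to the control mean. The difference between the groups weighs on this measure, so the genes were picked from the same contrast. The closest was Tmem107 (0.54), a membrane protein of the cilium base, at 5.02 to 9.90 FPKM in the controls and 18.5 to 42.3 in Fth1-deleted libraries. Also close were the histone H4 gene Hist1h4i (0.55), whose level is uncertain because histone H4 genes are near copies of each other, the centrosomal gene Cep85 (0.58) and Psmg4 (0.59), a proteasome assembly chaperone. None of these 4 passed the threshold by limma (lowest adjusted p = 0.0667, for Psmg4). Because of how they were picked, nothing is read from their differences. Within a group their order can differ from that of Hmox1. Tmem107 was at 42.3, 20.7, 18.5 and 29.8 FPKM in Fth1-deleted 1, 2, 3 and 4.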

How the data were processed

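Polyadenylated RNA was sequenced in 7 libraries. Per the series' design text, the authors aligned paired-end reads to GRCm38 with HISAT2 2.0.4, counted reads per gene with HTSeq 0.9.1 and deposited FPKM computed from gene length and counted reads. Annotation release, strand setting and filters are not given in the sources used here. Of 55855 identifiers, 55480 were matched to GENCODE M21. FPKM multiplied by the mean transcript length gave whole reads within 0.05 for 98.9% to 99.4% of values under 50 reads, and so the depth.

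The 13948 genes averaging 1 FPKM or more were tested as log2(FPKM + 1), which understates changes of low genes, with limma 3.58.1 in R 4.3.3 (trend, two-sided, Benjamini-Hochberg, threshold 0.05). The fit was tested on simulated data. Members, lists and tests were chosen with earlier results of these data known. The text names the 9 genes, Fth1, up to 4 called genes of each list or else the 2 of smallest p, and the 5 genes closest to Hmox1, of which 1 is not reported here. Alternatives were pseudocounts of 0.1 and 5, no filter, a filter at 5, size factors, no trend, the replicate number as a block, covariates for ribosomal RNA and Y-linked reads, the 5 libraries with high ribosomal RNA, limma-voom and each library left out. Motifs were searched in RefSeq windows and near copies with BLAST.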

Additional observations from a re-analysis of the deposited data

Results flagged for a closer look

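The ratio of Slc48a1 to Flvcr1 FPKM had 1 library far from the others in the Fth1-deleted group, with 32.6, 35.3 and 39.1 in Fth1-deleted 4, 1 and 2 and 82.6 in Fth1-deleted 3. The gap to the nearest library was 0.87 of the group's range. It rests on the 3.43 FPKM of Flvcr1 in Fth1-deleted 3, worth 109 reads. Chance alone marks about 1 in 20 such groups, and 35 values were examined.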

How the results depend on the processing

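Over all genes, 4 were called higher and 4 lower. These counts became 0 and 0 with no filter, 10 and 7 without a trend, 0 and 0 with the replicate block, 23 and 9 with the ribosomal RNA covariate, 7 and 10 with the Y-linked term, and 46 and 188 in the 5 libraries rich in ribosomal RNA. That fit has control 2 as its only control, assumed to vary like the other group, so its calls cannot be told apart from that library. With limma-voom 0 were higher and 5 lower. Leaving out 1 library, with the filter applied again, gave 0 to 13 higher and 0 to 6 lower. Keeping the genes of all 7 libraries, an alternative chosen after seeing the data, gave 0 to 3 higher and 0 to 1 lower, and adjusted p of 0.116 to 0.281 for Hmox1. Leaving single markers out of the marker sums was also chosen after seeing the data.

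The Hmox1 difference of 2.12 stayed positive in 25 of 25 alternatives and past the threshold in 8. It lost the threshold, and the count of the 9 genes called higher became 0, with no filter (2.12, adjusted p = 0.172), without a trend (2.12, 0.0997), with the replicate block (2.31, 0.684), with the ribosomal RNA covariate (2.11, 0.157), in the 5 libraries (2.05, 0.155) and with limma-voom (2.18, 0.0962). Leaving out 1 library gave 1.95 to 2.31, with 0 to 1 of the 9 genes called. The cause was not tested. The ribosomal RNA covariate gave 1 NRF2 and BACH1 target called higher, and the Y-linked term 1 other activator called lower. That term also gave Fth1 a difference of -1.74 (adjusted p = 0.0491).

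Signs turned in Blvra (-0.70 with the ribosomal RNA covariate, -0.34 in the 5 libraries), Keap1 (0.40, 0.22) and Flvcr1 (0.52, 0.21), and with that covariate in Por (0.0237) and Cav1 (0.56). Leaving out 1 library moved Bach1 between -0.29 and 0.0846 and Flvcr1 between -0.65 and 0.0227. The permutation p of the ribosomal RNA share was 0.0667 to 0.1 with 1 library left out, the smallest such splits allow.

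Same-numbered libraries did not deviate together (correlations of 0.00900, 0.0609 and -0.0370), so the numbers were not taken to pair them, and the replicate block leaves Fth1-deleted 4 without a partner. Depth limits Flvcr1 most, with 109 reads in its lowest library.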
